A study of Mus musculus with 4 samples.

Results

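Solute carriers are membrane proteins that move amino acids, sugars, ions, metals, nucleotides and metabolites across the plasma membrane or the membranes of organelles. The 207 carriers described here are those expressed in the postnatal day 10 mouse retina apart from 11 carriers left out by name, among them the established barrier transporters Slc2a1, Slc7a5 and Slc38a5. Genes with a solute carrier symbol numbered 347 in the deposited table of 23278 genes. A total of 129 of them had a mean below 1 FPKM (fragments scaled to transcript length and to the mapped fragments of the library) over the 4 libraries, and all 347 had a usable status in every library. The members were thus chosen by their mean level, which is a description and not a finding. The members nearest the limit were Slc10a3 and Slc25a18, both with a mean of 1.08 FPKM, and Slc5a5 with 1.096 FPKM. Just below it lay Slc25a41 at 0.982, Slc16a9 at 0.977 and Slc39a2 at 0.942 FPKM.

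RNA of whole retina was sequenced from 4 genotypes, with 1 library each. The stabilized knockout carried NdpKO;Ctnnb1flex3/+;Pdgfb-CreER, the knockout NdpKO alone, and the stabilized library Ctnnb1flex3/+;Pdgfb-CreER with intact Ndp. The WT library had none of these alleles. All mice were of a mixed strain with at least C57BL6 and 129 ancestry, and all were given 20 µg of 4HT, the active metabolite of tamoxifen, into the peritoneum at postnatal day 3, WT included. Each library pooled RNA from 3 batches of 4 to 8 retinas from 2 to 4 mice. Ndp encodes Norrin, a ligand that signals through the receptor Frizzled-4 and beta-catenin in the endothelial cells of growing retinal vessels. Ctnnb1flex3 yields a stabilized beta-catenin after recombination, and Pdgfb-CreER is a recombinase expressed in endothelial cells. Only the libraries with stabilization carried this recombinase, so its effects and those of stabilization cannot be told apart. With 1 pooled library per genotype no value has a replicate error, so no comparison was tested. The interval printed after a value is the one deposited with that FPKM. It describes the estimate within a library, not the variation between mice.

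In a vascular network that has formed its barrier, endothelial cells rely on carriers to pass nutrients, because the route between the cells is sealed. Neurons and glia hold most of the retina's RNA, and many carriers serve them instead, loading synaptic vesicles, clearing transmitters and exchanging ions or mitochondrial metabolites. The questions addressed were which carriers outside the known barrier set differed after loss of Norrin and which after stabilization of endothelial beta-catenin. In whole-retina RNA, fewer cells of a type and less RNA per cell cannot be told apart.

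The libraries held the RNA of retina: all 6 rod, 6 cone and 5 bipolar cell markers passed the same filter as the members. Ndp was at 0.869 FPKM in the stabilized knockout and 0.873 in the knockout, against 2.35 in the stabilized library and 2.98 in WT. The Y-linked gene Ddx3y was at 20.1 FPKM in the stabilized knockout and 18.7 in the knockout, against 0.173 in the stabilized library and 0.0896 in WT. Sex and Ndp genotype therefore cannot be told apart in these pools. Of 15 endothelial markers 12 passed the same filter as the members, and their summed level was 107 FPKM in the stabilized knockout against 63.4 in the knockout, and 107 in the stabilized library against 70.5 in WT. The 5 mural cell markers that passed differed the same way, at 30.9 against 13.3 FPKM and at 32.7 against 20.6 FPKM. None of the markers of either list was at 0 in all libraries. No source used here gives the read totals. The median distance from a member's FPKM to its upper bound was 17.1% to 17.7% of the value in the 4 libraries, and the widest was 84.5%.

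Most carriers lay at similar levels in all 4 genotypes. The highest library exceeded the lowest by less than 1.25-fold for 133 of the 207 members and by more for the rest (35.7%, against 30.7% of all genes). It did so by at least 1.5-fold for 12 of them (5.80%), where 8.84% of the 13150 genes that passed the same filter did so. Only Slc25a37, Slc40a1 and Slc7a2 spanned at least 2-fold, or 1.45% of the members against 3.41% of all genes. By level, 7 of 68 members with a mean of 1 to 5 FPKM spanned 1.5-fold (10.3%, against 20.6% of all genes at that level). The count was 4 of 98 between 5 and 20 FPKM (4.08%, against 4.13%) and 1 of 41 above 20 FPKM (2.44%, against 5.57%). The 207 members together made up 0.929% of all FPKM in the stabilized knockout, 0.923% in the knockout, 0.926% in stabilized retina and 0.899% in WT retina.

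Ratios between libraries are given below on the log2 scale of FPKM plus 0.5, which understates the change of low genes, and a gene was counted as higher or lower where this ratio reached 1.5-fold. Of the 207 members 7 reached it in at least 1 of 5 comparisons (3.38%), beside 5.63% of all genes. These were Slc40a1, Slc8a2, Slc7a2, Slc29a1, Slc25a37, Slc24a1 and Slc25a30. A total of 13 members (6.28%) had deposited intervals that did not overlap in some comparison, beside 5.16% of all genes. Neither share of the members was far from that of all genes.

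Counted by intervals alone, the knockout against WT gave 1 higher member, Slc24a1 (0.433% of all genes), and 1 lower, Slc25a33 (0.327%). The stabilized library against WT gave 3 higher, Slc1a4, Slc6a17 and Slc8a2 (1.76%), and 2 lower, Slc25a37 and Slc7a2 (1.57%). The stabilized knockout against the knockout gave 2 higher, Slc40a1 and Slc6a11 (1.26%), and 4 lower, Slc16a6, Slc24a1, Slc29a1 and Slc7a2, or 1.93% of the members beside 0.487% of all genes. The stabilized knockout against the stabilized library gave 3 higher, Slc24a1, Slc25a37 and Slc7a2 (0.312%), and 0 lower (0.213%). Against WT the stabilized knockout gave 6 higher, Slc22a17, Slc3a2, Slc40a1, Slc6a11, Slc6a17 and Slc8a2 (2.02%), and 0 lower (0.464%). With 1.5-fold required as well, the knockout against WT kept Slc24a1 (0.266% of all genes higher) and no lower member (0.243%), and the stabilized library against WT kept Slc8a2 as higher (0.875%) and Slc25a37 and Slc7a2 as lower (0.563%). The stabilized knockout then kept Slc40a1 as higher (0.875%) and Slc29a1 as lower (0.251%) against the knockout, and Slc25a37 and Slc7a2 as higher against the stabilized library (0.205%) with none lower (0.137%). Against WT it kept Slc40a1 and Slc8a2 as higher (1.00%) and none as lower (0.236%).

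**Figure D1:**
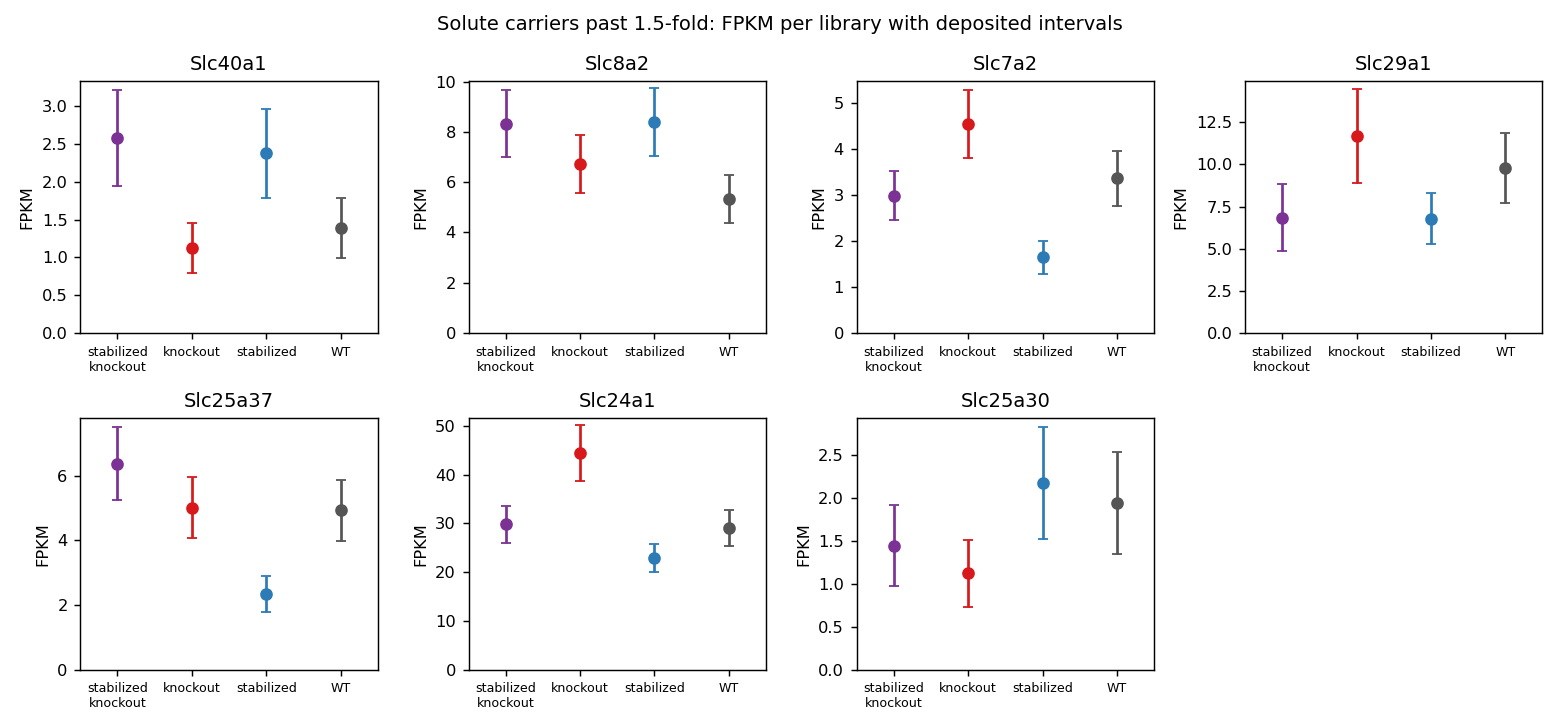
FPKM (vertical axis, linear and starting at 0) of the 7 carriers that reached 1.5-fold, in the stabilized knockout, knockout, stabilized and WT library; points are deposited values and bars deposited intervals. Slc40a1 is high in both libraries with stabilized beta-catenin, Slc29a1 low in both, Slc25a37 low in the stabilized library alone at 2.33 FPKM, and Slc24a1 high in the knockout at 44.4 FPKM.

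Stabilization of beta-catenin, each time together with Pdgfb-CreER, was measured on 2 backgrounds that share no library. A member can thus be looked up in a repeat of the change. Slc40a1 (chromosome 1, 45908068 to 45926523, minus strand, GENCODE M21 on mm10) encodes ferroportin, the iron exporter of the plasma membrane. It was the only member at least 1.5-fold higher in both, or 0.483% of the members, where 0.730% of all genes were, and no member was lower in both (0.304% of all genes). It stood at 2.58 FPKM in the stabilized knockout (1.95 to 3.21) and 1.13 FPKM in the knockout (0.793 to 1.46), a log2 ratio of 0.92. In the stabilized library it stood at 2.38 FPKM (1.78 to 2.97), against 1.39 FPKM in WT (0.996 to 1.79), and the log2 ratio was 0.60. Both libraries with stabilized beta-catenin were above both without it, with intervals apart on the knockout background and touching by a narrow margin on the intact one. Against WT the stabilized knockout had a log2 ratio of 0.70 with intervals apart. With a pseudocount of 1 in place of 0.5 the log2 ratio against WT was 0.50 for the stabilized library and 0.58 for the stabilized knockout, both short of 1.5-fold. Ferroportin is made in brain capillary endothelium and in macrophages. The endothelial marker sum was higher in the same pair of libraries, while the marker Emcn was lower, as given above. The 5 tested microglial markers summed to 17.5 FPKM in the stabilized knockout, 15.2 in the knockout, 17.9 in stabilized retina and 17.7 in WT retina. They did not share 1 pattern: 4 of the 5 were above 0 in the stabilized knockout against the knockout and 3 in the stabilized library against WT. Csf1r was at 4.09, 2.81, 4.02 and 2.72 FPKM in that order of libraries, and P2ry12 at 2.16, 2.03, 1.85 and 3.13 FPKM. A part of vessel or macrophage content in the Slc40a1 values was not tested.

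Slc8a2 (chromosome 7, 16129826 to 16161063, plus strand), a sodium-calcium exchanger of neurons, was the other member at least 1.5-fold higher in the stabilized library than in WT. The 2 members make 0.966% of the list, where 1.67% of all genes were higher. Slc8a2 was at 8.40 FPKM in the stabilized library (7.05 to 9.76) and 5.33 FPKM in WT (4.36 to 6.29), with intervals apart and a log2 ratio of 0.61. On the knockout background it was at 8.32 FPKM with stabilization (6.99 to 9.65) and 6.74 FPKM without (5.58 to 7.89), a log2 ratio of 0.29 with overlapping intervals. The WT library was thus the low one of the 4, and Slc8a2 was also higher in the stabilized knockout than in WT, at 0.60. With a pseudocount of 1 its ratio of the stabilized library to WT was 0.57, just short of 1.5-fold. The sum of the 6 ganglion cell markers was also lowest in WT, at 350 FPKM in the stabilized knockout, 337 in the knockout, 334 in stabilized retina and 297 in WT retina. The markers did not share 1 pattern. In the stabilized library against WT 5 of the 6 were above 0, and Sncg was below, at 99.5 against 120 FPKM. Whether these markers bear on Slc8a2 was not tested.

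Lower in the stabilized library than in WT were Slc7a2 and Slc25a37, again 0.966% of the members, where 1.71% of all genes were lower. Slc7a2 (chromosome 8, 40862396 to 40922308, plus strand) encodes a transporter of arginine, lysine and ornithine. It was at 1.65 FPKM in the stabilized library (1.29 to 2.00), against 3.37 FPKM in WT (2.76 to 3.97), and the log2 ratio was -0.85. In the stabilized knockout it was at 2.99 FPKM (2.46 to 3.52), against 4.55 FPKM in the knockout (3.81 to 5.29), a ratio of -0.53. Intervals were apart on both backgrounds, and the second ratio was just short of 1.5-fold. It passed with a pseudocount of 0.1 (-0.59) and after rescaling each library to the same total (-0.60). Slc7a2 was also the carrier at least 1.5-fold higher in the stabilized knockout than in the stabilized library (0.70), beside Slc25a37. The sum of the 6 Muller glia markers was likewise highest in the knockout and lowest in the stabilized library, with 466 FPKM in the stabilized knockout, 507 in the knockout, 414 in stabilized retina and 458 in WT retina. The 6 markers did not share 1 pattern: 1 of them was above 0 in the stabilized knockout against the knockout and 2 in the stabilized library against WT. Aqp4, the water channel of Muller glia and astrocytes, was at 2.97, 4.39, 1.94 and 3.88 FPKM in that order of libraries. Vim, an intermediate filament gene, was at 121, 97.2, 111 and 89.7 FPKM, and the transcription factor gene Sox9 at 5.49, 5.77, 5.89 and 5.59 FPKM. A part of Muller glia content in the Slc7a2 values was not tested.

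Slc25a37 (chromosome 14, 69241848 to 69285112, minus strand) encodes mitoferrin-1, which brings iron into mitochondria and is most needed in developing red cells. It was at 2.33 FPKM in the stabilized library (1.77 to 2.88), against 4.93 FPKM in WT (3.98 to 5.87), and the log2 ratio was -0.94 with intervals apart. On the knockout background it was at 6.37 FPKM in the stabilized knockout (5.24 to 7.50) and 5.01 FPKM in the knockout (4.06 to 5.96), a ratio of 0.32 with overlapping intervals. The stabilized library alone was low, and the stabilized knockout exceeded it by a log2 ratio of 1.28. The effects of stabilization on the 2 backgrounds differed by 1.26 log2 units, a difference that could not be tested with 1 library per group. Of 6 listed erythroid markers 3 passed the filter. They summed to 160 FPKM in the stabilized knockout, 62.9 in the knockout, 148 in stabilized retina and 66.5 in WT retina. A part of red cell content in the Slc25a37 values was not tested. No member was at least 1.5-fold higher on one background and 1.5-fold lower on the other.

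Slc29a1 (chromosome 17, 45585200 to 45599606, minus strand) encodes the equilibrative nucleoside transporter ENT1, which lets adenosine pass cell membranes. It was the single member at least 1.5-fold lower in the stabilized knockout than in the knockout (0.483%, against 0.920% of all genes), while Slc40a1 was the single higher one (0.483%, against 1.76%). It was at 6.85 FPKM in the stabilized knockout (4.87 to 8.82) and 11.7 FPKM in the knockout (8.92 to 14.5), a log2 ratio of -0.73. With intact Ndp it was at 6.79 FPKM in the stabilized library (5.26 to 8.32), against 9.79 FPKM in WT (7.72 to 11.9), a ratio of -0.50 with overlapping intervals. Both libraries with stabilized beta-catenin had nearly the same value, below both without it. On the knockout background the ratio was -0.69 to -0.78 over all pseudocounts and scalings tried.

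At a lower limit of 1.25-fold, chosen after the values were seen, 2 members were higher in both stabilization comparisons (0.966%, against 2.38% of all genes). These were Slc40a1 and Slc1a4, Slc1a4 being a neutral amino acid exchanger of serine, alanine and cysteine. Slc1a4 was at 7.42 FPKM in the stabilized knockout (6.17 to 8.67) and 5.30 FPKM in the knockout (4.31 to 6.28), and at 7.90 FPKM in the stabilized library (6.59 to 9.21) and 5.54 FPKM in WT (4.52 to 6.55). The ratios were 0.45 and 0.48, and intervals were apart only with intact Ndp. Lower in both were 4 members (1.93%, against 1.41% of all genes), namely Slc7a2, Slc29a1, Slc24a1 and the mitochondrial carrier Slc25a35. Slc25a35 was at 7.09 FPKM in the stabilized knockout, 9.63 in the knockout, 5.96 in stabilized retina and 8.02 in WT retina, with overlapping intervals, and its deposited locus overlaps that of Rangrf, so its value is uncertain. Across the 207 members the ratios of the 2 stabilization comparisons had a Spearman coefficient of 0.45 (Pearson 0.51), and across all 13150 genes 0.50 (Pearson 0.15). These coefficients are over genes, which share the libraries and their composition.

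**Figure D2:**
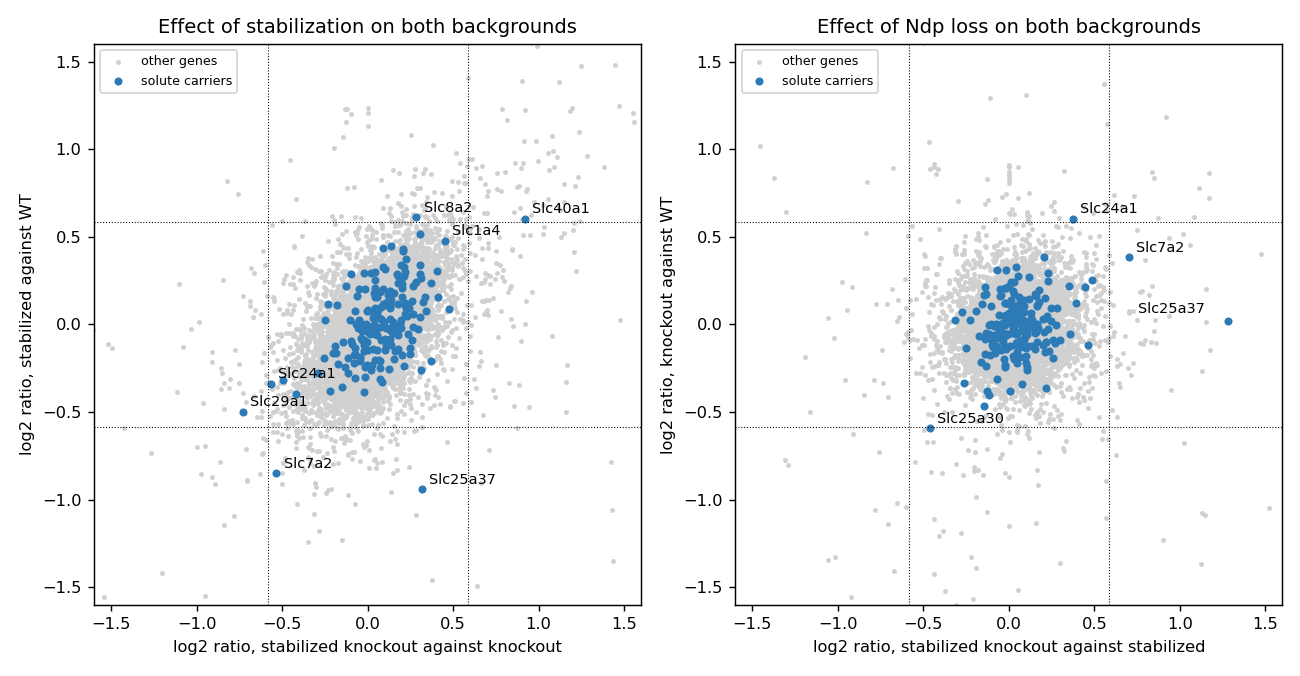
Log2 ratios of 2 comparisons that share no library, with 1 point per gene (blue, solute carriers; grey, other genes) and dotted lines at 1.5-fold: left, stabilized knockout against knockout (horizontal) and stabilized against WT (vertical); right, stabilized knockout against stabilized (horizontal) and knockout against WT (vertical). Beyond the axes lie 188 genes on the left and 177 on the right, none of them a solute carrier; Slc40a1 is the only carrier past 1.5-fold in both stabilization comparisons, and no carrier lies past both lines of Ndp loss.

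Few carriers differed with Ndp genotype, which cannot be told apart from sex in these pools. In the knockout against WT, 1 member was at least 1.5-fold higher (0.483%, against 0.966% of all genes) and 1 lower (0.483%, against 1.22%). Slc24a1 (chromosome 9, 64922861 to 64951607, minus strand), the potassium-dependent sodium-calcium exchanger of rod outer segments, was the higher one. The knockout held 44.4 FPKM (38.6 to 50.2) and WT 29.03 FPKM (25.4 to 32.7), which gave a log2 ratio of 0.60 with intervals apart. With stabilized beta-catenin it was at 29.8 FPKM without Ndp (26.1 to 33.6) and 22.9 FPKM with it (20.0 to 25.7), a ratio of 0.38, again with intervals apart. The knockout thus had the highest value and the stabilized library the lowest, and the stabilized knockout equalled WT within its interval. Against the knockout the stabilized knockout had a ratio of -0.57, which passed 1.5-fold after re-centring on the median of all genes (-0.60). Of 6 rod markers 1, the transducin gene Gnat1, was 1.5-fold higher in the knockout, and their sum was 5034 FPKM in the stabilized knockout, 5271 in the knockout, 4483 in stabilized retina and 4633 in WT retina. Gnat1 itself was at 213 FPKM in the stabilized knockout, 401 in the knockout, 215 in stabilized retina and 239 in WT retina. The part of rod RNA content in the Slc24a1 values was not tested.

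The lower member was Slc25a30 (chromosome 14, 75760117 to 75787037, minus strand), a mitochondrial carrier of the uncoupling protein group. The knockout held 1.12 FPKM (0.730 to 1.51) and WT 1.94 FPKM (1.35 to 2.54), which gave a log2 ratio of -0.59 with overlapping intervals. With stabilized beta-catenin it was at 1.44 FPKM without Ndp (0.970 to 1.91) and 2.17 FPKM with it (1.52 to 2.83), a ratio of -0.46. Both libraries without Ndp lay below both with it, but intervals overlapped in each comparison, and with a pseudocount of 1 the ratio to WT was -0.47. Slc25a33, a mitochondrial pyrimidine nucleotide carrier, had intervals apart at a smaller ratio of -0.38, with 46.3 FPKM (40.1 to 52.4) for the knockout and 60.3 FPKM (52.5 to 68.0) for WT. No member was at least 1.5-fold apart in both comparisons of Ndp genotype, where 0.266% of all genes were higher and 0.266% lower. At 1.25-fold Slc24a1 and Slc7a2 were higher in both (0.616% of all genes) and Slc25a30 was lower in both (0.532%).

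In the stabilized knockout against the stabilized library 2 members were higher (0.966%, against 0.981% of all genes), Slc25a37 and Slc7a2, and none was lower (against 0.692%). In the stabilized knockout against WT 2 were higher (0.966%, against 1.79%), Slc40a1 and Slc8a2, and none was lower (against 1.07%). No Ndp ratio of the 8 X-linked members, which include the creatine transporter Slc6a8, reached 1.5-fold. The largest was 0.39, for Slc9a7 in the stabilized knockout against the stabilized library, at 6.19 against 4.60 FPKM. Slc9a7 lies 3.19 Mb from Ndp. The other 4 members within 5 Mb of Ndp, Ctnnb1 or Pdgfb were Slc16a8, Slc25a17 and Slc52a2 near Pdgfb and Slc25a38 near Ctnnb1. None of them reached 1.5-fold in any comparison. The position used was that of the Pdgfb gene itself, and where Pdgfb-CreER lies in the genome was not checked.

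The RefSeq table of promoters (build GRCm38.p6) held 161 of the 207 members. Promoters span 250 bases before to 50 after the most upstream listed start. They are shown for the carriers that reached 1.5-fold, as the sequence around the start of genes that differed with stabilization or with Ndp, and the table held Slc8a2, Slc29a1, Slc24a1 and Slc25a30. Slc29a1 has 8 listed starts. Capitals mark matches to ACGTG, the core of the hypoxia response element, or CTTTGA, the core bound by TCF/LEF factors, on either strand.
Slc8a2 (chr7:16129576-16129875, plus strand): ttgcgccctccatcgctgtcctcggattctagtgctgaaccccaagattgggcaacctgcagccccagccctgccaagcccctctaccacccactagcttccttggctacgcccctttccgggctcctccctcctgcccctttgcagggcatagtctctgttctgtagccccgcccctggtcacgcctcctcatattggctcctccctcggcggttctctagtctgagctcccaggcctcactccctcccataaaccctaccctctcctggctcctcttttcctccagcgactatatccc
Slc29a1 (chr17:45599569-45599868, minus strand): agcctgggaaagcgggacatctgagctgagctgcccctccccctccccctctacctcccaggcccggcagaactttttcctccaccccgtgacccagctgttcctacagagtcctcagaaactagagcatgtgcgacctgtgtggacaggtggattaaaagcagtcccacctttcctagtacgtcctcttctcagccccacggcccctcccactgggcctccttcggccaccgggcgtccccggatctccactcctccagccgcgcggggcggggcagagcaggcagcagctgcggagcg
Slc24a1 (chr9:64951571-64951870, minus strand): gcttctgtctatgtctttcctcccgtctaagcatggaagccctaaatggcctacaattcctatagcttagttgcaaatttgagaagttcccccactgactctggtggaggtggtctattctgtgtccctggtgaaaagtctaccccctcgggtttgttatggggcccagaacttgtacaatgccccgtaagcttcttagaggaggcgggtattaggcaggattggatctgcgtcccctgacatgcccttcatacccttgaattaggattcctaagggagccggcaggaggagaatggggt
Slc25a30 (chr14:75786988-75787287, minus strand): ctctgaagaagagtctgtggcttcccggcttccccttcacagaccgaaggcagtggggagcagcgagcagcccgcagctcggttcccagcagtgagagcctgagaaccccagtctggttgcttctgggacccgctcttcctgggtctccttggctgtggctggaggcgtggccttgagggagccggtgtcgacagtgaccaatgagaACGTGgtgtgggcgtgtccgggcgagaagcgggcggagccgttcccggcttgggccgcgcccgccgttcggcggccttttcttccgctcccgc
Of these windows only that of Slc25a30 held a match, to ACGTG, which was found in 28.6% of the members' promoters and 19.6% of all 27025 promoters. CTTTGA was found in 10.6% of the members' promoters and in 16.2% of all, and in none of the 4 shown. A match is a description of the letters and not a binding site.

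By role, carriers of amino acids and transmitters at the plasma membrane had the highest class medians in both stabilization comparisons. Their 33 members had a median log2 ratio of 0.17 in the stabilized knockout against the knockout, where all genes had 0.03, and of 0.16 in the stabilized library against WT, where all genes had -0.02. A total of 20 of the 33 (60.6%) were above 0 on both backgrounds and 6 (18.2%) below 0 on both, beside 35.9% and 30.4% of all genes. The class summed to 661 FPKM in the stabilized knockout and 594 in the knockout, and to 637 in the stabilized library and 574 in WT. Both medians stayed above 0 with other pseudocounts, after re-centring (0.14 and 0.18) and after rescaling to the same total (0.16 and 0.22). No member of the class was 1.5-fold higher in either comparison, and Slc7a2 was the 1 that was lower.

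Slc6a11, the GABA transporter GAT3, was at 57.7 FPKM in the stabilized knockout (50.4 to 65.0) and 43.3 in the knockout (37.8 to 48.7), with intervals apart, and at 49.2 in the stabilized library (42.96 to 55.3) and 44.1 in WT (38.5 to 49.6). The stabilized knockout was the high library. Slc6a17, placed in this class by its family number and known as a neutral amino acid transporter of synaptic vesicles, was at 11.6 FPKM in the stabilized knockout, 9.93 in the knockout, 11.6 in stabilized retina and 8.45 in WT retina, with the 2 libraries with stabilization apart from WT (ratios of 0.43 each). Slc6a6, the taurine transporter, was at 61.3, 62.0 and 60.2 FPKM in the stabilized knockout, knockout and stabilized library and at 52.3 FPKM in WT. Slc1a7, the glutamate transporter EAAT5 of photoreceptors and bipolar cells, was lower with stabilization, at ratios of -0.14 and -0.10.

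Of 6 listed carriers known to be induced by ATF4, the transcription factor of the amino acid response, 4 were members. All 4 members lay above 0 in both stabilization comparisons, beside 35.9% of all genes. Their median ratio was 0.28 on the knockout background and 0.29 with intact Ndp, where all genes had 0.03 and -0.02. In the comparisons of Ndp genotype it was -0.05 in the stabilized knockout against the stabilized library and -0.06 in the knockout against WT. The members are Slc1a4, Slc3a2, Slc1a5 and Slc38a2. All 4 are also counted in the amino acid and transmitter class above, and Slc3a2 is counted again among the brain capillary carriers below. Slc3a2 encodes the heavy chain CD98, which pairs with Slc7a5 and related light chains, and was at 55.0 FPKM in the stabilized knockout (47.97 to 62.0), 47.9 in the knockout (40.7 to 55.1), 53.8 in stabilized retina (46.96 to 60.6) and 42.5 in WT retina (37.1 to 47.9). Its stabilized knockout value lay apart from WT at a ratio of 0.37. Slc1a5, a glutamine exchanger, was at 3.29 FPKM in the stabilized knockout, 2.61 in the knockout, 3.33 in stabilized retina and 2.73 in WT retina. Slc38a2, a sodium-coupled transporter of small neutral amino acids, was at 28.02, 23.2, 31.5 and 26.95 FPKM in that order. None reached 1.5-fold. The other 2 carriers of the list were below the minimum mean. Slc7a11, the cystine-glutamate exchanger, had ratios of -0.01 and 0.04 in the stabilization comparisons, and Slc7a3, a cationic amino acid transporter, 0.45 and 0.09.

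**Figure D3:**
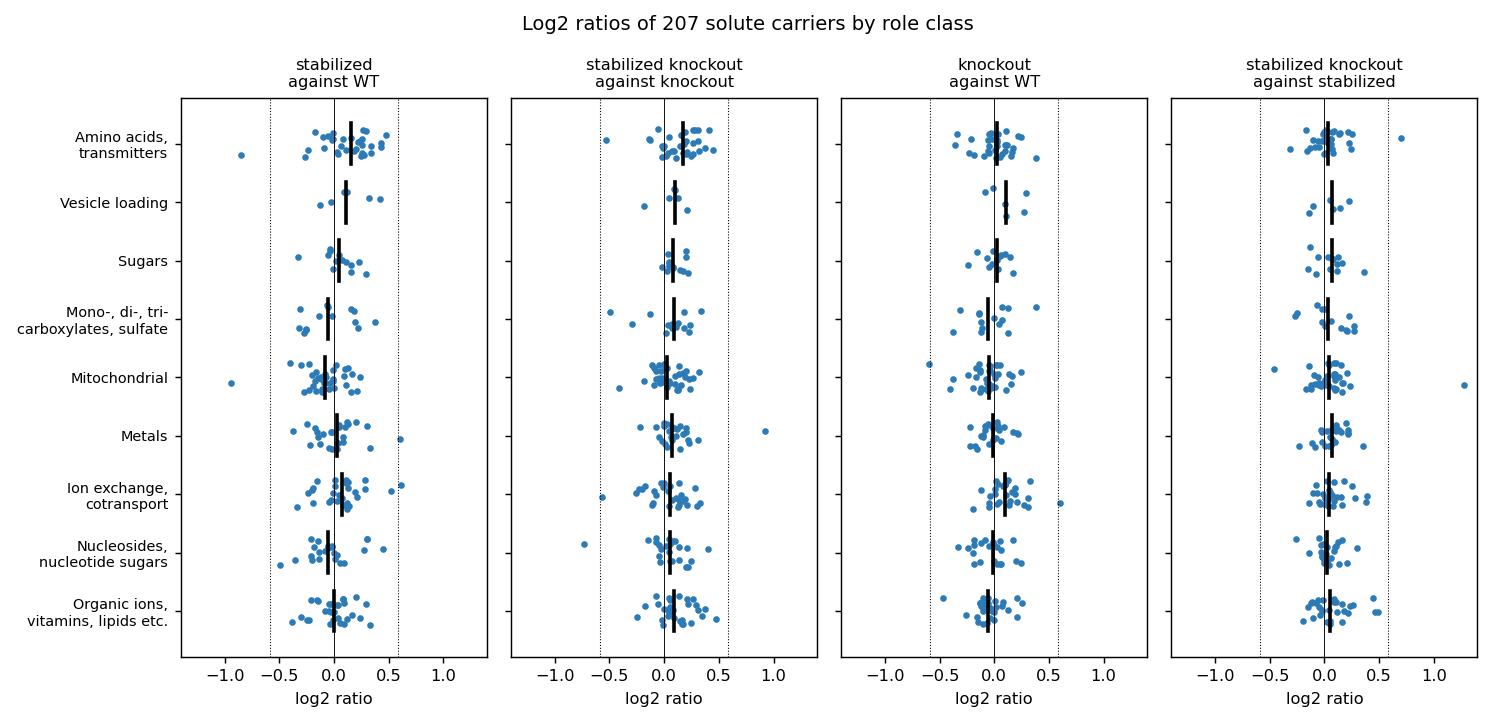
Log2 ratios (horizontal axes) of the 207 carriers in 9 role classes, with 1 point per carrier, a thick black bar at the class median and dotted lines at 1.5-fold, in 4 comparisons. The medians of the amino acid and transmitter class lie at 0.16 and 0.17 in the 2 stabilization panels, and most points of every class lie between the dotted lines.

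Ion exchangers and cotransporters were above 0 in both comparisons of Ndp genotype for 17 of 28 members (60.7%, against 28.4% of all genes) and below 0 in both for 1 (3.57%, against 21.4%). Their medians were 0.04 in the stabilized knockout against the stabilized library and 0.10 in the knockout against WT, where all genes had 0.04 and -0.02. The first of these turned to -0.03 after rescaling to the same total. Its direction and the count of 17 above 0 thus depend on the scaling. The class is led by Slc12a5, the potassium-chloride cotransporter KCC2 that keeps neuronal chloride low, at 68.6 FPKM in the stabilized knockout, 66.5 in the knockout, 67.4 in stabilized retina and 58.3 in WT retina. The 6 vesicle loading carriers had medians of 0.10 in the stabilized knockout against the knockout and 0.11 in the stabilized library against WT, where all genes had 0.03 and -0.02. In the comparisons of Ndp genotype their medians were 0.07 in the stabilized knockout against the stabilized library, which turned to -0.01 after rescaling to the same total, and 0.10 in the knockout against WT. Slc17a7, the vesicular glutamate transporter VGLUT1 of photoreceptors and bipolar cells, was at 226 FPKM in the stabilized knockout, 257 in the knockout, 192 in stabilized retina and 210 in WT retina, so it shared with Slc24a1 the highest value in the knockout and the lowest in the stabilized library. Slc17a6, the VGLUT2 of ganglion cells, was at 16.6, 15.5 and 15.99 FPKM in the stabilized knockout, knockout and stabilized library and at 12.7 FPKM in WT. Slc32a1, the vesicular transporter of GABA and glycine, was at 34.9, 32.7, 33.02 and 30.4 FPKM.

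Mitochondrial carriers were the largest class by number, with 36 members. They had a median of 0.02 in the stabilized knockout against the knockout and -0.09 in the stabilized library against WT. The first of these turned to -0.01 after re-centring or rescaling, so its direction depends on the scaling. A total of 15 (41.7%) were below 0 in both and 9 above 0 in both, beside 30.4% below and 35.9% above among all genes. The adenine nucleotide translocase gene Slc25a4, the highest of all members, was at 476 FPKM in the stabilized knockout, 503 in the knockout, 444 in stabilized retina and 501 in WT retina. Slc25a5, its X-linked relative, was at 208, 194, 185 and 196 FPKM, and the phosphate carrier gene Slc25a3 at 183, 168, 171 and 184 FPKM. Intervals overlapped for each of these in every comparison. The 25 carriers of metals had medians of 0.08 and 0.03 in the stabilization comparisons, and Slc40a1 was their only member past 1.5-fold. Slc22a17, the lipocalin-2 receptor and highest of the mixed class of organic ions, vitamins and lipids, was at 120 FPKM in the stabilized knockout (105 to 135), 96.8 in the knockout (84.6 to 109), 113 in stabilized retina (98.6 to 127) and 92.2 in WT retina (80.6 to 104). Only the stabilized knockout and WT had intervals apart. Slc16a6, a monocarboxylate carrier family member, was at 15.3 FPKM in the stabilized knockout (13.3 to 17.3) and 21.8 in the knockout (17.97 to 25.6), with intervals apart and a ratio of -0.49, and at 13.2 in the stabilized library and 16.6 in WT. Its locus overlaps that of Arsg, which makes the value uncertain.

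Carriers known in brain capillary endothelium were of interest because the endothelial marker sum was higher with stabilization. Of 10 listed genes 7 were members, and 6 of the 7 were above 0 in both stabilization comparisons (85.7%, against 35.9% of all genes). Their median was 0.20 in each. Only Slc40a1 reached 1.5-fold. Slc39a10, a zinc importer, was at 14.7 FPKM in the stabilized knockout and 11.8 in the knockout, and at 14.3 in the stabilized library and 13.8 in WT. Slc16a4 was at 1.45 and 1.17 FPKM and at 1.48 and 1.03 FPKM in the same pairs. The zinc exporter gene Slc30a1 was at 13.9 and 12.8 FPKM and at 13.8 and 12.6 FPKM. The median of the endothelial markers was larger, at 0.88 on the knockout background and 0.73 with intact Ndp.

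The remaining 3 genes of that list were below the minimum mean and are no members. Slc22a8, the organic anion transporter OAT3, was at 0.894 FPKM in the stabilized knockout (0.557 to 1.23) and 0.419 in the knockout (0.265 to 0.573), and at 1.34 in the stabilized library (0.895 to 1.78) and 0.443 in WT (0.282 to 0.604). It would have counted as higher in both comparisons without the minimum, at ratios of 0.60 and 0.96. Slc22a8 is also on the list of pigment epithelium carriers. Of the 6 pigment epithelium markers that passed the filter, 4 were above 0 in the stabilized library against WT. At least 1.5-fold higher there were 3 of them. In the stabilized knockout against the knockout 1 of the 6 was above 0. A part of pigment epithelium content in the Slc22a8 values was not tested. Slc35f2 was at 1.01 FPKM in the stabilized knockout (0.685 to 1.33) and 0.372 in the knockout (0.220 to 0.525), with intervals apart, and at 1.08 in the stabilized library and 0.647 in WT. Slc19a3, a thiamine transporter, was at 0.240, 0.138, 0.228 and 0.164 FPKM in the stabilized knockout, knockout, stabilized library and WT. Carriers that were at least 1.5-fold lower in 1 of the stabilization comparisons were also below the minimum. Slc30a2, a zinc transporter, was at 0.843 FPKM in the stabilized knockout and 0.743 in the knockout, a ratio of 0.11. It was at 0.0215 in the stabilized library and 0.430 in WT, a ratio of -0.83 with intervals apart. The stabilized knockout exceeded the stabilized library by a ratio of 1.37, with intervals apart. Without the minimum, Slc30a2 would have counted in these last 2 comparisons. In the stabilized knockout against the knockout Slc25a41 had a ratio of -0.90 with intervals apart and Slc39a2 of -0.63 with overlapping intervals. Among the 11 carriers left out by name, 4 were at least 1.5-fold higher in the stabilized knockout than in the knockout (beside 1.76% of all genes) and 3 in the stabilized library than in WT (beside 1.67%), led by Slc39a8 (1.61) and Slc38a5 (1.45) in the first and Slc38a5 (1.48) and Slc7a1 (0.88) in the second. Those 11 were named with earlier results in view, so their count is a description.

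**Figure D4:**
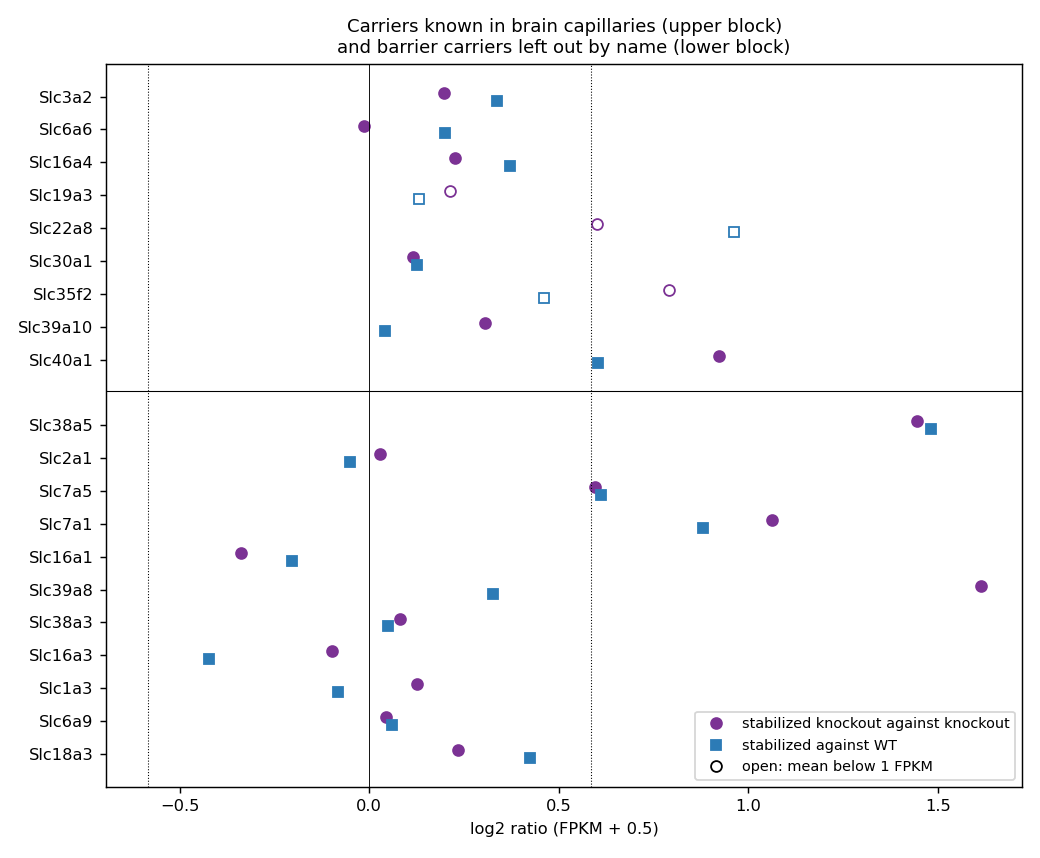
Log2 ratios (horizontal axis, FPKM plus 0.5) of 9 of the 10 listed carriers known in brain capillaries (upper block; 1 is not drawn) and of the 11 carriers left out by name (lower block) in the stabilized knockout against the knockout (circles) and the stabilized library against WT (squares); open symbols have a mean below 1 FPKM and dotted lines mark 1.5-fold. Slc40a1 is the filled gene of the upper block past 1.5-fold in both comparisons, and Slc38a5, Slc7a1 and Slc7a5 are past it in both in the lower block.

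Carriers of retinal neurons and glia gave 19 members, of which 10 were above 0 and 5 below 0 in both stabilization comparisons (52.6% and 26.3%, against 35.9% and 30.4% of all genes). In both comparisons of Ndp genotype 14 were above 0 and 2 below (73.7% and 10.5%, against 28.4% and 21.4% of all genes). Their medians were 0.08 in the stabilized knockout against the stabilized library and 0.10 in the knockout against WT, where all genes had 0.04 and -0.02. After rescaling to the same total the first of these was 0.003, where all genes had -0.03. The counts above and below 0 were taken with the main scaling only. Many of these carriers, such as Slc24a1, Slc12a5 and Slc17a7, are also counted in the ion exchange or vesicle loading class above. Slc24a1 was the only member of this list past 1.5-fold. Slc18a2, the vesicular monoamine transporter, was at 3.17 FPKM in the stabilized knockout, 2.68 in the knockout, 3.44 in stabilized retina and 2.45 in WT retina. Slc1a2, the glutamate transporter GLT-1, was at 24.9, 27.4, 22.7 and 26.9 FPKM, lower with stabilization on both backgrounds, with overlapping intervals. The 6 tested carriers of pigment epithelium had medians of 0.02 on the knockout background, which turned to -0.01 after re-centring or rescaling, and 0.19 with intact Ndp, and none reached 1.5-fold. Among 3 tested carriers of red cells and heme synthesis the urea transporter gene Slc14a1 was at 5.38 FPKM in the stabilized knockout, 4.05 in the knockout, 3.77 in stabilized retina and 4.43 in WT retina. The anion exchanger gene Slc4a1, the defining carrier of red cells, was below the minimum mean and is not 1 of the 3. It was at 0.0373 FPKM in the stabilized knockout, 0.0271 in the knockout, 0.0772 in stabilized retina and 0.00705 in WT retina. These values lie near 0, with a WT interval of 0 to 0.0199, and were not interpreted.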

How the data were processed

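Whole retina RNA of 4 genotypes was sequenced as 1 pooled library each, prepared with a TruSeq kit per the labels' protocols. The deposited table gives, per gene and library, an FPKM with a lower and an upper bound and a status. TopHat, Cuffdiff and mm10 are named in the submitters' processing notes; no tool version, annotation, read total, strand setting or interval level is given in the sources used here. FPKM are relative within a library, and how fragments were divided among overlapping or similar genes is not stated. The deposited locus of 20 members overlaps that of another gene.

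Each column name carries the library number that 1 sample's label also carries. Members were rows with a symbol of Slc, a family number, a letter and a number, a status of OK in each library and a mean of at least 1 FPKM, without 11 named carriers. Log2 ratios used a pseudocount of 0.5 over all 13150 genes that passed, and 1.5-fold was the limit for a count. Without replicates no test between genotypes was run. The members, lists, classes and rule for named genes were chosen with earlier results of these data known. The rule was past 1.5-fold, intervals apart, highest of a class, listed, or near Ndp, Ctnnb1 or Pdgfb. Slc6a17, Slc25a33, Slc25a35, members just inside the minimum and carriers below it were named outside that rule, after their values were seen. Coordinates come from GENCODE M21, matched for 206 members. The step that counts genes past the limit was checked on simulated FPKM with known changes, not on replicates. Alternatives were pseudocounts of 0.1 and 1, a minimum mean of 5 FPKM or none, re-centring, TPM, intervals apart and 2-fold. A limit of 1.25-fold was added after seeing the data. The tools were matplotlib 3.10.9, scipy 1.17.1, pandas 2.3.3, numpy 2.4.6 and Python 3.11.15. Some members are counted but not reported here by name.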

Additional observations from a re-analysis of the deposited data

How the results depend on the processing

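With 1 library per genotype, depth and the deposited intervals limit what can be seen, and carriers near the minimum mean tend to have wider intervals than higher ones. No paired analysis was possible because each genotype has 1 library. Counts of members were small, so a change of 1 gene moved many of them, and 75 of 116 recomputed counts stayed within 1.5 times the reported one. No log2 ratio that itself reached 1.5-fold changed sign under another pseudocount, minimum or scaling. Ratios near 0 did, such as that of Slc29a1 in the stabilized knockout against the stabilized library, at 0.01 with the main scaling and -0.06 after rescaling to the same total.

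With a pseudocount of 1 there were 0 lower members in the knockout against WT, 0 higher in the stabilized library against WT, 0 higher in the stabilized knockout against WT and 0 higher in both stabilization comparisons. With a pseudocount of 0.1 there were 2 lower in the stabilized knockout against the knockout, with Slc7a2 added, and 1 lower in both stabilization comparisons (Slc7a2). With a minimum of 5 FPKM there was 1 higher member in the stabilized library against WT and 1 in the stabilized knockout against WT (Slc8a2 in each), with 0 lower in the knockout against WT and in the stabilized library against WT, 0 higher in the stabilized knockout against the knockout and against the stabilized library, and 0 higher in both stabilization comparisons. With no minimum there were 4 higher in the stabilized library against WT (with Slc22a8 and Slc52a3), 3 higher (with Slc22a8 and Slc35f2) and 3 lower (with Slc25a41 and Slc39a2) in the stabilized knockout against the knockout, 1 lower against the stabilized library (Slc25a41), 1 lower against WT (Slc39a2) and 2 higher in both stabilization comparisons (with Slc22a8). Re-centring gave 0 lower in the knockout against WT and 2 lower in the stabilized knockout against the knockout (with Slc24a1). Rescaling to the same total gave 3 lower in that comparison (with Slc24a1 and Slc7a2), 1 lower in the stabilized knockout against the stabilized library and 1 lower in both Ndp comparisons (Slc25a30), and 1 lower in both stabilization comparisons (Slc7a2). Requiring intervals apart left 0 lower in the knockout against WT, 1 higher in the stabilized library against WT (Slc8a2) and 0 higher in both stabilization comparisons. At 2-fold, 1 member remained in the stabilized knockout against the stabilized library (Slc25a37), and 0 in every other count that was above 0. At 1.25-fold there were 2 higher and 4 lower in both stabilization comparisons and 2 higher (Slc24a1, Slc7a2) and 1 lower (Slc25a30) in both Ndp comparisons. Beyond what each setting changes by construction, the cause was not tested.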
